A study of Mus musculus with 12 samples.

Results

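The growth hormone, prolactin and insulin-like growth factor (IGF) axis was followed in mouse kidney through 10 genes, which are *Ghr*, *Prlr*, *Igf1*, *Igf1r*, *Igf2r*, *Igfbp1*, *Igfbp3*, *Igfbp4*, *Igfbp5* and *Igfbp7*. They were taken by symbol from tables of 24421 gene symbols. Where a symbol had several transcripts, the transcript with the highest total count over all libraries stood for the gene, so the rows were chosen by these totals. The genes themselves were named for their roles, with earlier results of these comparisons in view. RNA-seq gave 12 libraries from kidney tissue of male C57BL/6 mice at an age of 6 weeks. They fall into 4 groups of 3: WT and Tet2-/- mice given as healthy controls (baseline), and WT and Tet2-/- mice after ischemia-reperfusion (IR). Tet2-/- mice are given as knockouts bred from Tet2+/- parents on a C57BL/6J background, and the mice studied at baseline were not those that underwent IR. In IR mice the right renal pedicle was clamped and released and the left kidney was removed, and no sham-operated library was analysed here, so ischemia cannot be told apart from surgery and loss of the other kidney. The groups allow 5 comparisons: IR against baseline within each genotype, the genotypes at baseline, the genotypes after IR, and the difference between the IR effects of the genotypes (the interaction).

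Growth hormone and prolactin come from the pituitary and bind related receptors of the cytokine receptor family, which have no kinase of their own and signal through JAK2 and STAT5. Growth hormone drives the production of IGF-I in the liver and in other tissues, and IGF-I acts through a receptor tyrosine kinase, IGF1R, while IGF2R carries IGF-II to lysosomes. In blood and tissue the IGFs are held by a family of binding proteins, which are cut by proteases such as PAPP-A. In the kidney the growth hormone receptor is known from the proximal tubule, and IGF-I raises renal blood flow and filtration.

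All 10 genes have entries in RefSeq's table of transcription starts on GRCm38.p6, which is a different build from the mm9 coordinates of the counts below. The 250 bases before each of their 13 entries (2 for *Ghr* and 3 for *Prlr*) were searched for 5 short motifs: TTCNNNGAA, the STAT5-type site, CAAAACA, the core of the insulin response element bound by FOXO factors, TGACGTCA, the cyclic AMP response element, and CACGTG, an E-box, each on both strands, and TATAAA on the sense strand alone. These letters occurred in 7.02%, 5.56%, 1.55%, 6.02% and 7.59% of 32841 promoters, respectively, and no 2 of the matches in these genes overlapped. The sequences are shown for the hormone receptors, for the binding proteins called in an IR comparison (*Igfbp3*, *Igfbp4* and *Igfbp5*) and for *Igfbp1*, the neighbour of *Igfbp3*, with a match in capitals. The second *Prlr* entry held a STAT5-type site, *Igfbp1* an insulin response core and *Igfbp4* a TATA box, while neither *Ghr* entry nor *Igfbp3* or *Igfbp5* held any of the 5. *Igf2r* held 2 E-boxes and is not printed. A match is a string of letters and not a measured site.
Ghr, first start, chr15:3583353-3583602, minus strand: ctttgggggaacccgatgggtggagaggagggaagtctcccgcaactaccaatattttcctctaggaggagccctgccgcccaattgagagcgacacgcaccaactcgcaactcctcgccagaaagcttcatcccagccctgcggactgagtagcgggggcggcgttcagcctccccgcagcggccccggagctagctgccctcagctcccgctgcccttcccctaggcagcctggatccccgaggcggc
Prlr, second start, chr15:10223656-10223905, plus strand: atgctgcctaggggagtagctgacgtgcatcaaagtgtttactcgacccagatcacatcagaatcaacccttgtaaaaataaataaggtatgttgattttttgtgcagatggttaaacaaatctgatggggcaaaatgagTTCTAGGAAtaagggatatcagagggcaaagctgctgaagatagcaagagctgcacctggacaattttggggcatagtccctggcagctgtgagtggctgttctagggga
Igfbp1, chr11:7197537-7197786, plus strand: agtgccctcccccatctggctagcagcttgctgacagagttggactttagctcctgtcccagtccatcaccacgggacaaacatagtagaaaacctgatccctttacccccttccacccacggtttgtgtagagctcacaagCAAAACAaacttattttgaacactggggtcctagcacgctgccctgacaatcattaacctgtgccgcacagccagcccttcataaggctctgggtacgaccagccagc
Igfbp3, chr11:7213924-7214173, minus strand: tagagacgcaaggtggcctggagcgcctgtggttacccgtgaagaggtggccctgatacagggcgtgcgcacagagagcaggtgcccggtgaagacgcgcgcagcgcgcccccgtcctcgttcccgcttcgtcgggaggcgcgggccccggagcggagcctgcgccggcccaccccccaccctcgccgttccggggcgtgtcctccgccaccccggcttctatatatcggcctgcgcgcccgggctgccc
Igfbp4, chr11:99040994-99041243, plus strand: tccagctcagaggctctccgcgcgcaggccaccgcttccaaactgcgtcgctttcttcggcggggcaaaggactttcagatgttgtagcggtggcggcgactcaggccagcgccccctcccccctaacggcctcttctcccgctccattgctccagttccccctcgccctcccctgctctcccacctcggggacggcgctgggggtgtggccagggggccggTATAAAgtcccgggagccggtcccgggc
Igfbp5, chr1:72874866-72875115, minus strand: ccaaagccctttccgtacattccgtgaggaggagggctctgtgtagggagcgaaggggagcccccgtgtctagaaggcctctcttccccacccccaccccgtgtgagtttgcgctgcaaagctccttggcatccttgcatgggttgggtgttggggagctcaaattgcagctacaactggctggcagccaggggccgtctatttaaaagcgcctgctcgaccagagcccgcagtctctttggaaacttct

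*Tet2*, the gene of the labels, is given first. Its level was 9.15, 6.25 and 7.33 FPKM (fragments per kilobase of transcript, scaled to library size) in WT baseline replicates 1, 2 and 3 and 9.24, 16.6 and 10.3 FPKM in the Tet2-/- baseline replicates, so it was not lower in the latter, and these are called the libraries labelled Tet2-/- throughout. After IR it was 9.34, 3.97 and 3.86 FPKM in WT and 2.64, 3.20 and 1.76 FPKM in the libraries labelled Tet2-/-. That log2 difference was −1.28 (edgeR adjusted p = 0.0690), called with DESeq2 and with a single fit of all 12 libraries. A count over the whole transcript cannot show whether part of the gene is missing, so the genotype was not tested. Totals per library ran from 51007366 to 107969888 counts, and the members were counted between 54 times (*Igf1* in WT IR replicate 3) and 149062 times (*Igfbp7*) in a library. All 12 proximal tubule markers were present in each group at a mean of at least 1 FPKM. Markers of fat cells, 9 genes, summed to 141 and 282 FPKM in WT baseline replicates 2 and 3 and to 605 FPKM in labelled Tet2-/- IR replicate 3, against 16.4 to 116 FPKM in the other 9 libraries. WT IR replicate 3 had the lowest summed level of endothelial markers (13.2 FPKM, against 46.0 to 191 FPKM elsewhere) and of glomerular markers (3.27 FPKM, against 14.0 to 90.4 FPKM).

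Among the members, *Ghr*, *Prlr*, *Igf1*, *Igfbp3*, *Igfbp4* and *Igfbp5* fell after IR in the libraries labelled Tet2-/-, by a log2 fold change of 1.02 to 3.28 in size. These are 6 of 10 members, where 11.6% of 16359 genes tested were called lower. In WT libraries *Igfbp3* alone fell, 1 of 10, where 0.887% of 16015 genes were called lower, and with the replicate numbers as a block *Igfbp5* fell as well (2 of 10, where 3.49% of genes were called lower in that fit). Calls rest on edgeR's quasi-likelihood test, and needed both a change past 1 on the log2 scale in either direction and a p, adjusted over all genes, under 0.05. After IR the growth hormone receptor was the 1 member called between the genotypes, lower in the libraries labelled Tet2-/-, where 3.85% of 16186 genes were called lower, and no member was called higher, against 2.3% of genes. At baseline 0 of 10 members and 0.0124% of 16086 genes were called. At baseline, 1 member (*Igfbp5*) had an unadjusted p under 0.05, as had 11.8% of all genes, and DESeq2 called that 1 member. The interaction, called at an adjusted p under 0.05 alone, was passed by *Ghr* only, in the lower direction, where 5.39% of 16741 genes passed that way and 3.79% the other way. The comparisons share groups, so their values are given side by side and not as separate evidence.

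**Figure D1:**
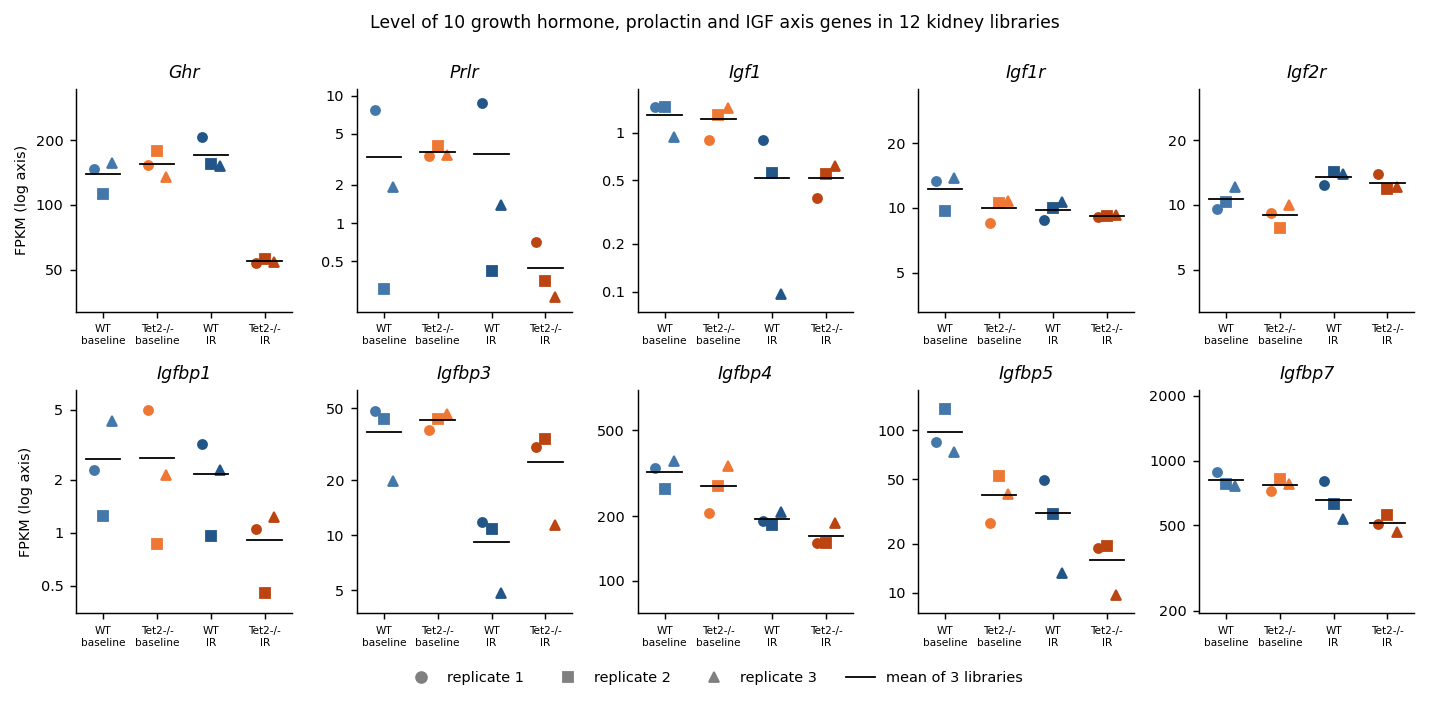
FPKM on a log axis for each of the 10 genes in the 12 libraries, by group; a point is a library, its shape the replicate number, and the black line the mean of the 3. *Ghr* is level except for labelled Tet2-/- IR libraries, at 53.5 to 56.0 FPKM, while *Prlr* runs from 0.303 to 7.65 FPKM within WT baseline.

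The growth hormone receptor gene *Ghr* (NM_010284, minus strand of chromosome 15 from 3267755 to 3533352 in mm9) was present in WT baseline replicates at 147, 113 and 156 FPKM. The libraries labelled Tet2-/- had 153, 178 and 134 FPKM at baseline. After IR, WT libraries had 207, 155 and 151 FPKM, whereas those labelled Tet2-/- had 53.5, 56.0 and 54.1 FPKM. The first 3 groups overlapped in the order of their means (171, 155 and 139 FPKM for WT IR, labelled Tet2-/- baseline and WT baseline), and all 9 of their libraries lay above the 3 labelled Tet2-/- IR libraries. Of all genes, in TMM CPM, 25.6% lay wholly below baseline after IR in the libraries labelled Tet2-/-, and 18.9% wholly below WT IR. The mean there was 54.5 ± 1.32 FPKM (SD, n = 3), 35.1% of the labelled Tet2-/- baseline mean of 155 ± 22.2 FPKM (SD, n = 3). The log2 fold change of IR was −1.77 (standard error 0.17, edgeR adjusted p = 0.000366) in the libraries labelled Tet2-/- and 0.23 (standard error 0.20, adjusted p = 0.517, 95% interval −0.15 to 0.62) in WT. The IR effects differed by −1.96 on the log2 scale (standard error 0.26, edgeR adjusted p = 0.00381), and after IR the libraries labelled Tet2-/- were lower than WT by −1.74 on the log2 scale (standard error 0.19, adjusted p = 0.0104). Without WT baseline replicates 2 and 3, which leaves 1 library in that group whose spread is taken from the others, the interaction was −1.79 with an adjusted p of 0.0683. At baseline the genotypes differed by 0.25 (adjusted p = 0.565).

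The 3 genes whose profile over the 12 libraries was nearest to that of *Ghr* were *Slc3a1*, which encodes a subunit of the cystine transporter of the proximal tubule, *Fmo1*, a flavin monooxygenase, and *Bhmt2*, a methyltransferase that makes methionine. Nearness was the root mean square difference of centred log2(TMM CPM + 1) over 12 libraries, which was 0.187, 0.187 and 0.191 among 12196 genes, against 0.737 for the spread of *Ghr* about its own mean. *Slc3a1* had 335, 220 and 214 FPKM in WT IR and 81.7, 72.3 and 73.6 FPKM in labelled Tet2-/- IR libraries. Its log2 fold change of IR was −2.05 in the libraries labelled Tet2-/- and −0.07 in WT, which describes the choice by profile and is no test. Of the 12 proximal tubule markers, 9 fell with IR in the libraries labelled Tet2-/- (median log2 fold change −1.62) and 1 in WT (median −0.70). Among other segments, 3 of 6 thick ascending limb markers (median −1.16), 2 of 4 distal convoluted tubule markers (median −1.02) and 1 of 7 collecting duct markers (median −0.43) fell in the libraries labelled Tet2-/-, and 0 of these were called in WT (medians −0.48, −0.91 and −0.24). After IR, 4 of the 12 proximal tubule markers were lower in the libraries labelled Tet2-/- than in WT. The summed level of the 12 was 15058 to 24108 FPKM in labelled Tet2-/- IR and 23123 to 27245 FPKM in WT IR. Most of that sum is the marker *Kap*, with means of 17634 and 21319 FPKM in the same order. Averaged over the 12 markers, log2(FPKM + 0.1) was 6.46 to 6.85 in labelled Tet2-/- IR and 7.41 to 7.95 in WT IR libraries. None of these 12 was at 0 in any library. The part of tubule cells in the *Ghr* result was not tested, and in whole kidney RNA fewer cells of a type and less RNA per cell cannot be told apart.

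**Figure D2:**
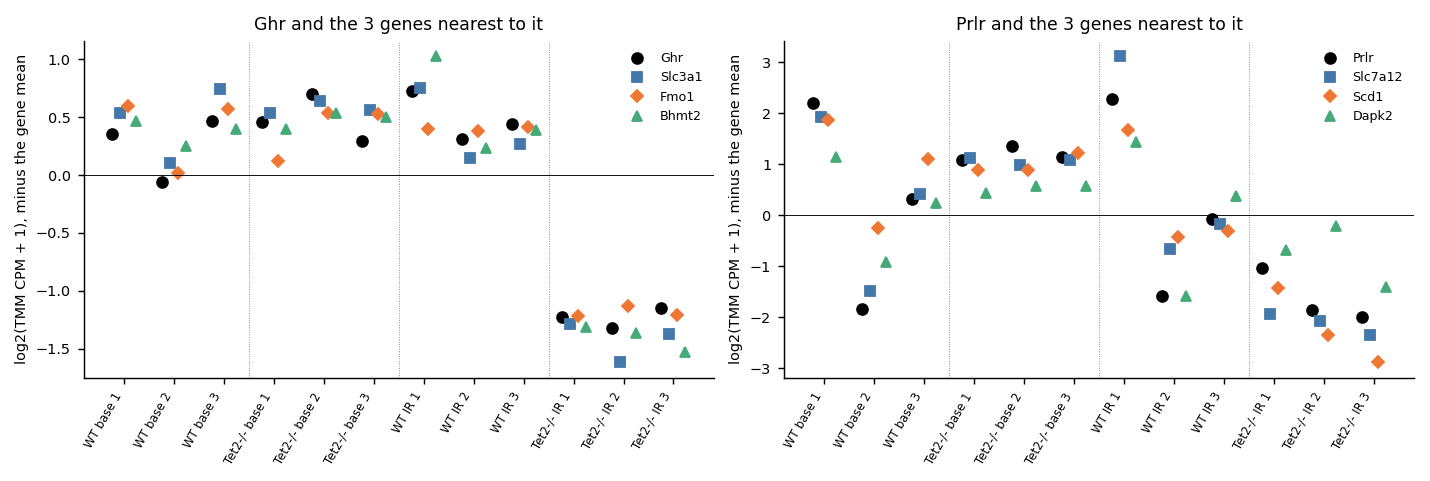
Centred log2(TMM CPM + 1) in each of the 12 libraries for *Ghr* (left) and *Prlr* (right), each with its 3 nearest genes; base means baseline. *Ghr* and its neighbours sit together and drop in the 3 labelled Tet2-/- IR libraries, while *Prlr* and *Slc7a12* are both high in replicate 1 and low in replicate 2 of WT at baseline and after IR.

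The prolactin receptor gene *Prlr* (NM_001253781, plus strand of chromosome 15 from 10153661 to 10278935) varied most among WT libraries. Its level was 7.65, 0.303 and 1.92 FPKM in WT baseline replicates 1, 2 and 3 and 8.73, 0.418 and 1.39 FPKM in the same-numbered WT IR replicates. The highest library was 25.3 times the lowest at baseline and 20.9 times after IR, and in both groups replicate 1 was high and replicate 2 low. The libraries labelled Tet2-/- were close together at baseline, with 3.35, 4.0 and 3.42 FPKM. After IR those labelled Tet2-/- had 0.716, 0.352 and 0.262 FPKM, with no overlap, as was so in that direction for 25.6% of all genes. *Prlr* thus fell there by −3.28 on the log2 scale (standard error 0.38, edgeR adjusted p = 0.000630), to 12.4% of the baseline mean. Its other transcripts fell there by less, from means of 0.898 to 0.262 FPKM and of 2.48 to 0.580 FPKM. They were also less close together at baseline, at 0.604 to 1.16 FPKM and 1.5 to 3.41 FPKM. In WT the 95% interval of the fold change ran from −2.5 to 2.5, which is too wide to place it, and with the replicate block it was −0.01 (adjusted p = 0.976). After IR the genotypes differed by −3.06 (standard error 1.05, edgeR adjusted p = 0.109, called with DESeq2 and without WT IR replicate 2), with WT IR replicate 2 inside the range of the other group. Over the alternatives that difference ran from −3.61 to −1.16. The IR effects differed by −3.23 (standard error 1.52, adjusted p = 0.196, −4.78 to −1.37 over the alternatives), and by −3.35 (adjusted p = 0.00414) when the replicate numbers entered the fit as a block within each genotype.

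The gene nearest to *Prlr* was *Slc7a12*, an amino acid transporter, at a root mean square difference of 0.495 against 1.55 for *Prlr* about its mean. Next came *Scd1*, a fatty acid desaturase (0.733), and *Dapk2*, a kinase (0.788). *Slc7a12* had 9.12, 0.490 and 2.88 FPKM in WT baseline libraries and 23.1, 1.26 and 1.76 FPKM in WT IR libraries, high and low in the same replicates as *Prlr*. In the libraries labelled Tet2-/- it had 4.30 to 4.89 FPKM at baseline and 0.0860 to 0.259 FPKM after IR. These values follow from its choice by profile and are a description.

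*Igf1* (NM_010512, plus strand of chromosome 10 from 87321797 to 87399792), the gene of the circulating and local growth factor, was low in every library. WT baseline libraries had 1.45, 1.46 and 0.940 FPKM and the libraries labelled Tet2-/- had 0.899, 1.29 and 1.44 FPKM. After IR the values were 0.900, 0.553 and 0.0970 FPKM in WT and 0.386, 0.546 and 0.614 FPKM in the libraries labelled Tet2-/-. Both IR groups lay below their own baseline group without overlap (14.6% of genes did so in WT and 25.6% in the libraries labelled Tet2-/-), and their means were 0.517 and 0.515 FPKM. In the libraries labelled Tet2-/- *Igf1* fell by −1.49 on the log2 scale (standard error 0.28, edgeR adjusted p = 0.00472). In WT the fold change was −1.41 with a standard error of 0.65 (adjusted p = 0.252), and the lowest value came from WT IR replicate 3, the library low in endothelial and glomerular markers. Without that library it was −0.93 (adjusted p = 0.228), without WT IR replicate 1 it was −2.06 (0.142), and with the replicate block −1.78 (0.0554). The 3 genes nearest to *Igf1* were *Atoh8*, a transcription factor (0.241), *Ramp3*, a partner of the adrenomedullin receptor (0.300), and *Itga8*, the integrin chain of mesangial and smooth muscle cells (0.301), against 0.869 for *Igf1* itself.

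No comparison called either of the IGF receptors. *Igf1r* (NM_010513, plus strand of chromosome 7 from 75097143 to 75378553), the signalling receptor, lay between 8.53 and 13.8 FPKM in all 12 libraries. The 3 labelled Tet2-/- IR libraries had 9.09, 9.16 and 9.26 FPKM. Its log2 fold change of IR was −0.39 in WT (95% interval −0.76 to −0.02, edgeR adjusted p = 0.281) and −0.38 in the libraries labelled Tet2-/- (interval −0.67 to −0.09, adjusted p = 0.0741). These intervals use a normal distribution and are narrower than the test allows, so excluding 0 is not a call. *Igf2r* (NM_010515, minus strand of chromosome 17 from 12875272 to 12962572) is the mannose 6-phosphate receptor that clears IGF-II. It ran from 7.82 to 12.1 FPKM at baseline and from 11.8 to 14.2 FPKM after IR. The IR fold changes were 0.28 in WT (adjusted p = 0.316) and 0.23 in the libraries labelled Tet2-/- (adjusted p = 0.254). The antisense gene *Airn* overlaps *Igf2r*, and the strand setting of the counting is not given in the sources used here, so their reads cannot be told apart with certainty.

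*Igfbp3* (NM_008343, minus strand of chromosome 11 from 7106096 to 7113926) encodes the main IGF carrier of blood and in the kidney was the member with the lowest WT level after IR relative to baseline. WT baseline libraries had 48.1, 43.4 and 19.8 FPKM, and WT IR libraries had 11.8, 10.8 and 4.84 FPKM. The libraries labelled Tet2-/- had 38.1, 43.8 and 46.4 FPKM at baseline and 30.5, 33.9 and 11.4 FPKM after IR. Both IR groups lay below their baseline groups, as did 14.6% of genes in WT and 25.6% in the libraries labelled Tet2-/-. Replicate 3 was the lowest of 3 in every group but labelled Tet2-/- baseline. In WT *Igfbp3* fell to 24.6% of the baseline mean, −2.10 on the log2 scale (standard error 0.40, edgeR adjusted p = 0.0449). With the WT replicate numbers as a block, *Igfbp3* was at −2.09 (adjusted p = 0.00193) and *Igfbp5* was called as well. The WT call was lost without any 1 of the 6 libraries (adjusted p = 0.0517 to 0.145) and without WT baseline replicates 2 and 3 together (0.272), while the fold change stayed between −2.49 and −1.83. In the libraries labelled Tet2-/- the fold change was −1.04 (standard error 0.34, adjusted p = 0.0388). That call was lost in 8 of 14 alternatives, among them each baseline library left out and library sizes alone (adjusted p up to 0.109), and leaving out replicate 3 of labelled Tet2-/- IR gave −0.72. After IR the libraries labelled Tet2-/- had 2.77 times the mean of WT, or 1.37 on the log2 scale (standard error 0.42, adjusted p = 0.0843), and it was called in 4 of 14 alternatives: with DESeq2, with a single fit of all 12 libraries, with the replicate block (1.32, adjusted p = 0.0125) and without that same replicate 3 (1.69). In counts per library scaled with TMM factors (TMM CPM) the 2 IR groups just missed overlapping (37.7 against 37.6), as was so in this direction for 17.3% of all genes, whereas in FPKM the lowest labelled Tet2-/- value of 11.4 was just under the highest WT value of 11.8.

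*Igfbp1* (NM_008341, plus strand of chromosome 11 from 7097790 to 7102549) lies end to end with *Igfbp3*, with 3546 bases between them. Its protein is the binding protein that insulin suppresses. It had 2.28, 1.25 and 4.33 FPKM in WT baseline and 4.95, 0.866 and 2.14 FPKM in labelled Tet2-/- baseline libraries. After IR it had 3.20, 0.960 and 2.28 FPKM in WT and 1.05, 0.454 and 1.22 FPKM in the libraries labelled Tet2-/-. Replicate 2 was the lowest in all 4 groups, and the groups overlapped in each of the 4 comparisons. The fold change of IR was −0.36 in WT (standard error 0.57, edgeR adjusted p = 0.754) and −1.76 in the libraries labelled Tet2-/- (standard error 0.66, adjusted p = 0.0641). In the latter it ran from −2.19 to −0.80 over 14 alternatives and was called in 3 of them, with adjusted p from 0.00976 to 0.251. The genotypes after IR differed by −1.32 (adjusted p = 0.183). Its nearest genes were *Echdc3*, *Acp6* and *Nynrin*, at 0.418, 0.469 and 0.477 against 0.789 for *Igfbp1* about its mean.

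*Igfbp5* (NM_010518, minus strand of chromosome 1 from 72904639 to 72921439), a binding protein held in the extracellular matrix, had 84.8, 135 and 73.2 FPKM in WT baseline libraries. The libraries labelled Tet2-/- had 26.8, 52.2 and 40.5 FPKM at baseline, all below WT. After IR it had 49.5, 30.6 and 13.3 FPKM in WT and 18.7, 19.3 and 9.67 FPKM in the libraries labelled Tet2-/-. It was the 1 member whose genotype groups did not overlap at baseline, as was so in that direction for 11.8% of all genes. That difference was −1.20 (standard error 0.31, edgeR adjusted p = 0.253, unadjusted p = 0.00539), and the labelled Tet2-/- mean was 40.7% of the WT mean. *Igfbp5* fell after IR in the libraries labelled Tet2-/-, by −1.60 on the log2 scale (standard error 0.31, adjusted p = 0.00573). In WT the fold change was −1.74 (standard error 0.44, adjusted p = 0.0844), and it was called in 4 of 15 alternatives, among them the replicate block (−1.87, adjusted p = 0.0192) and WT IR replicate 1 left out. The IR effects differed by 0.18 with a 95% interval of −0.96 to 1.32.

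**Figure D3:**
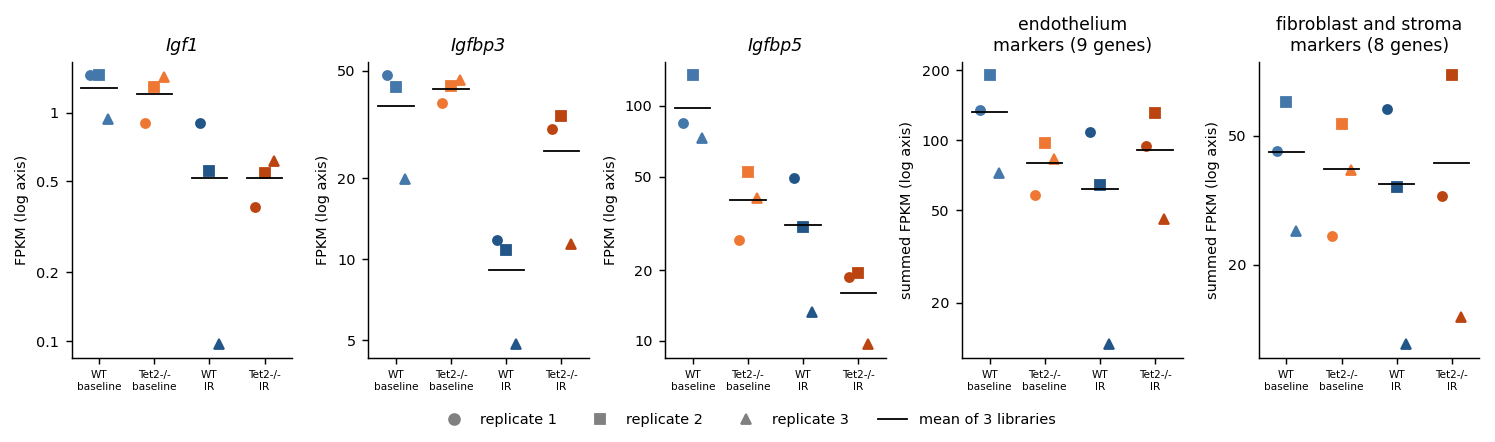
FPKM of *Igf1*, *Igfbp3* and *Igfbp5* and the summed FPKM of 9 endothelial and 8 fibroblast and stromal markers on log axes, by group; a point is a library and the line the mean of 3. WT IR replicate 3 is the lowest of the 12 libraries for *Igf1*, *Igfbp3* and both marker sums (13.2 and 11.4 FPKM).

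Markers of vessel and interstitial cells varied within the IR groups. Endothelial markers summed to 108, 64.1 and 13.2 FPKM in WT IR replicates 1, 2 and 3, and to 94.8, 130 and 46.0 FPKM in the libraries labelled Tet2-/- after IR. Fibroblast and stromal markers summed to 60.4, 34.8 and 11.4 FPKM and to 32.5, 76.8 and 13.8 FPKM in the same order. Replicate 3, lowest in both sums in each IR group, was also lowest for *Igfbp3* and *Igfbp5* there, and for *Igf1* in WT alone. Of the 9 endothelial and 8 stromal markers, 0 were called in either IR comparison (median log2 fold changes of −0.99 and −0.48 in WT and 0.34 and −0.67 in the libraries labelled Tet2-/-). All 6 glomerular markers rose in the libraries labelled Tet2-/- (median 1.87) and 0 of 6 were called in WT (median −0.33). Neutrophil markers summed to 74.3 to 131 FPKM in labelled Tet2-/- IR libraries, against 4.02 to 9.36 FPKM in WT IR and at most 2.76 FPKM at baseline. Of the 6 tested, 6 rose with IR in the libraries labelled Tet2-/- (median 5.43) and 5 were higher there than in WT after IR. Tubular injury markers rose with IR for 8 of 9 genes in the libraries labelled Tet2-/- (median 5.68) and 6 of 9 in WT (median 3.61). The part of these cells and of injury in the results was not tested.

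*Igfbp4* (NM_010517, plus strand of chromosome 11 from 98902574 to 98913957) encodes the binding protein that PAPP-A cuts. It had 333, 268 and 362 FPKM in WT baseline and 206, 277 and 342 FPKM in labelled Tet2-/- baseline libraries, and after IR 189, 182 and 209 FPKM and 150, 150 and 185 FPKM. Both IR groups lay below their baseline groups, as did 14.6% of genes in WT and 25.6% in the libraries labelled Tet2-/-. The log2 fold change was −1.02 in the libraries labelled Tet2-/- (standard error 0.25, edgeR adjusted p = 0.0138), just past the threshold of 1, and the call was lost in 7 of 14 alternatives, with −0.79 when only library sizes scaled the counts. In WT it was −0.79 (standard error 0.19, adjusted p = 0.0736). *Igfbp7* (NM_001159518, minus strand of chromosome 5 from 77778265 to 77837070), a relative with low affinity for IGFs and a urinary marker of tubular stress, was the most abundant member. It had 762 to 884 FPKM in WT baseline and 721 to 821 FPKM in labelled Tet2-/- baseline libraries. After IR it had 802, 625 and 533 FPKM in WT and 509, 559 and 467 FPKM in the libraries labelled Tet2-/-. There its fold change of −0.86 passed the p threshold (edgeR adjusted p = 0.00598) and not the fold threshold. The WT fold change of −0.38 passed neither (adjusted p = 0.258). Its end overlaps the opposite-strand gene *Polr2b* by a short stretch.

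**Figure D4:**
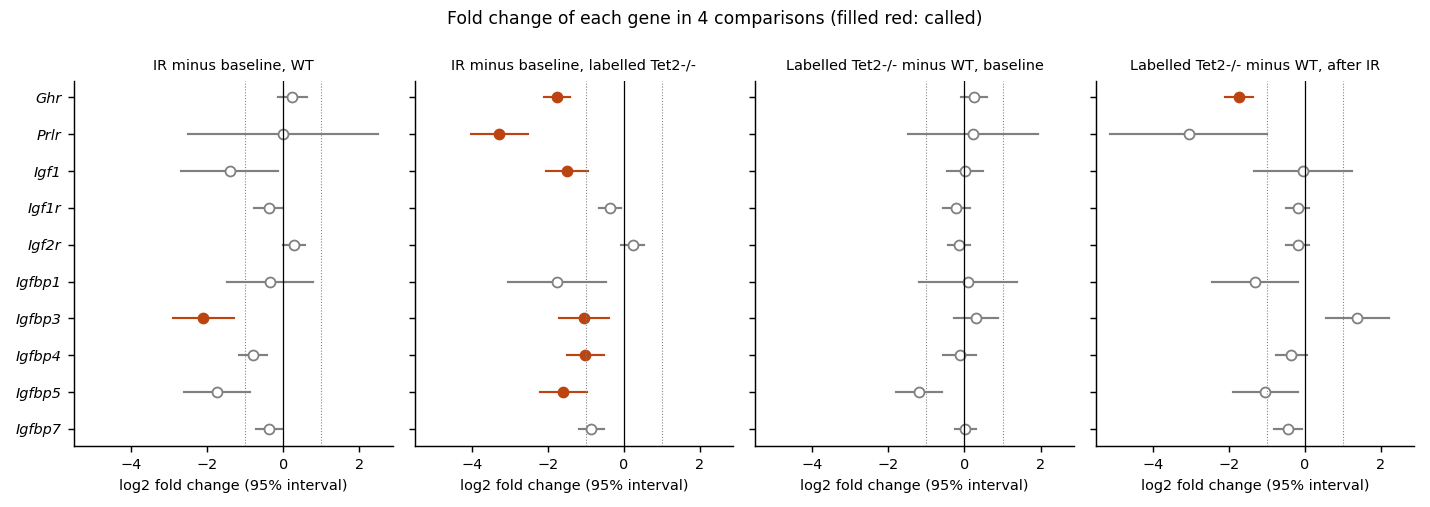
Fitted log2 fold change of each of the 10 genes (point) with its 95% interval from a normal distribution (line) in 4 comparisons. Filled red points were called, and dotted lines mark −1 and 1. In the labelled Tet2-/- IR comparison 6 points are red, and in both the WT IR comparison and the genotype comparison after IR 1 point is red.

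The other genes of the axis, 77 in 8 lists by role, were tested in the same fits. Of 67 that passed the filter, 2 rose and 1 fell with IR in WT, where 1.46% of all genes rose and 0.887% fell. With the replicate block *Socs2* and *Igfals* were also called higher and *Igfbp6* lower in WT. In the libraries labelled Tet2-/- 11 rose and 4 fell with IR, where 12.7% of all genes rose and 11.6% fell. After IR 4 were higher and 3 lower in the libraries labelled Tet2-/- than in WT, beside 2.3% and 3.85% of all genes, and at baseline 0 were called. The median log2 fold change of the 67 genes with IR was 0.05 in WT and 0.19 in the libraries labelled Tet2-/-, against −0.03 and 0.04 over all genes tested. For the 10 members the medians were −0.38 and −1.27.

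**Figure D5:**
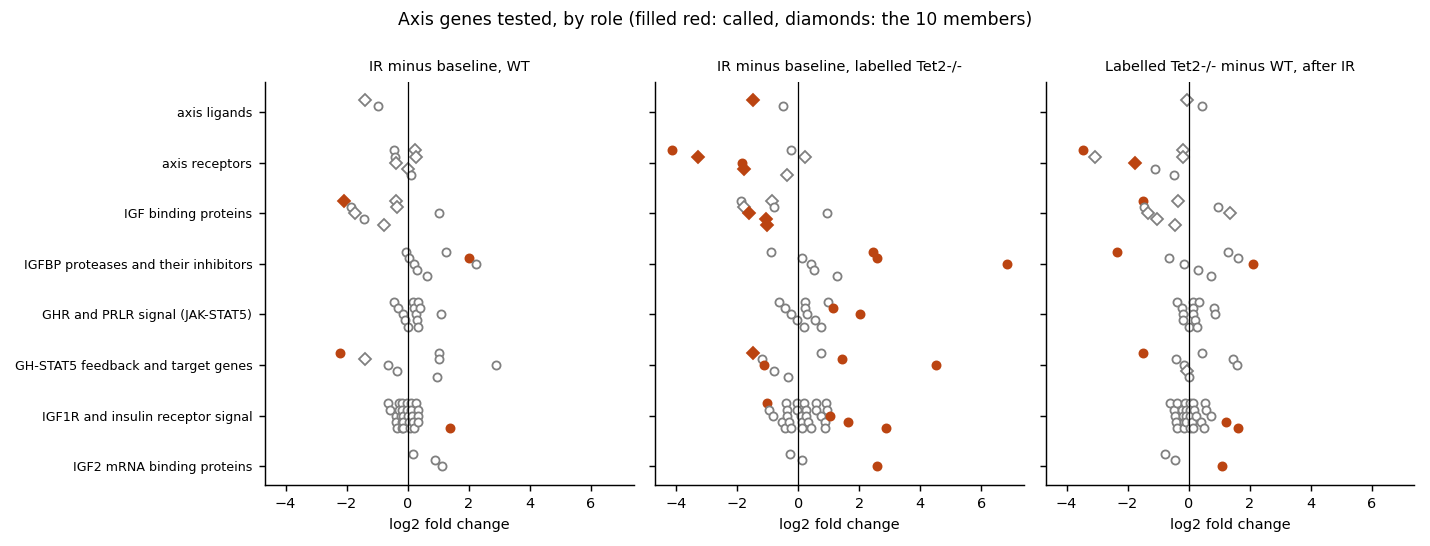
Log2 fold change of every axis gene tested, in 8 lists by role (rows), in 3 comparisons; filled red points were called and diamonds are the 10 members. In the labelled Tet2-/- IR comparison 4 of 7 receptors and 3 of 8 binding proteins are red on the left of 0, while 3 of 8 proteases and inhibitors are red on the right.

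Among receptors, *Ghrhr*, the receptor of growth hormone-releasing hormone, had 0.599, 0.637 and 0.272 FPKM in labelled Tet2-/- baseline libraries and 0.0570, 0.0270 and 0.0130 FPKM after IR. The IR libraries held 10, 5.5 and 2 counts. It fell there by −4.13 on the log2 scale (standard error 0.60, edgeR adjusted p = 0.00155, −4.75 to −0.53 over the alternatives), and it was lower than in WT IR by −3.47 (adjusted p = 0.0282, a call lost in 6 of 14 alternatives). The insulin receptor-related receptor *Insrr* fell in the libraries labelled Tet2-/- as well (−1.84, adjusted p = 0.0145), whereas the insulin receptor *Insr* had fold changes of 0.11 and −0.22 with IR (adjusted p = 0.768 and 0.195). The ligand *Igf2* had −0.96 and −0.48 (adjusted p = 0.340 and 0.548). Growth hormone and prolactin themselves (*Gh*, *Prl*) did not pass the filter in any comparison.

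The binding protein partner *Igfals*, the acid-labile subunit of the ternary complex in blood and a known target of growth hormone, had 1.61, 3.96 and 4.40 FPKM in WT baseline and 6.44, 7.89 and 6.75 FPKM in WT IR libraries. The libraries labelled Tet2-/- had 3.82, 4.10 and 3.77 FPKM at baseline and 3.07, 2.88 and 2.09 FPKM after IR. It was therefore lower after IR in the libraries labelled Tet2-/- than in WT, by −1.5 (standard error 0.19, edgeR adjusted p = 0.0115), and the interaction was −1.78 (adjusted p = 0.0281). Its IR effect was 1.02 in WT (adjusted p = 0.159, 0.0441 with the replicate block and 0.0422 with DESeq2) and −0.81 in the libraries labelled Tet2-/- (adjusted p = 0.0115). *Igfbp2* had fold changes of −1.42 and −1.86 (adjusted p = 0.369 and 0.0536), and *Igfbp6* of −1.85 and 0.96 (adjusted p = 0.178 and 0.195), in WT and in the libraries labelled Tet2-/-. *Igfbp2* was called in the latter in 5 of 14 alternatives (lowest adjusted p 0.00647). *Igfbp6* was called in WT with the replicate block (−2.11, adjusted p = 0.0425) and in the libraries labelled Tet2-/- without their baseline replicate 1 (1.66, adjusted p = 0.0470).

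Of the proteases that cut the binding proteins, *Pappa* rose in both genotypes. It had 0.331 to 0.626 FPKM at baseline and 1.29 to 2.69 FPKM after IR in WT, a log2 fold change of 2.0 (edgeR adjusted p = 0.0333, lost in 6 of 15 alternatives, among them any WT baseline library left out, with p up to 0.295), and 2.57 in the libraries labelled Tet2-/- (adjusted p = 0.00424). *Mmp7* had at most 0.05 FPKM in labelled Tet2-/- baseline libraries and 3.01, 5.5 and 3.44 FPKM after IR, a log2 fold change of 6.85 (adjusted p = 0.000161). The baseline libraries held 1, 6.5 and 1 counts, so its size depends on the method (2.25 to 7.78 over the alternatives). *Adamts1* rose by 2.46 in the libraries labelled Tet2-/- (adjusted p = 0.000664). *Pappa2*, at no more than 0.181 FPKM in any library, was lower in the libraries labelled Tet2-/- than in WT after IR (−2.36, adjusted p = 0.0403). That call rested on 10 to 107.5 counts a library and was lost in 6 of 12 alternatives. The inhibitors *Stc1* and *Stc2* had IR fold changes of 0.05 and 0.20 in WT and 0.11 and 0.51 in the libraries labelled Tet2-/-, none past the threshold.

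Among the feedback genes of STAT signalling, *Socs3*, which is induced by STAT3, had 0.660, 1.09 and 0.502 FPKM in labelled Tet2-/- baseline libraries and 22.5, 26.1 and 14.0 FPKM after IR, a rise of 4.52 on the log2 scale (edgeR adjusted p = 0.000143). *Stat3* itself rose by 2.03 there (adjusted p = 0.000210). In WT IR libraries *Socs3* was 1.19, 12.8 and 5.61 FPKM and its fold change of 2.91 did not pass (adjusted p = 0.0855), but was called in 3 of 15 alternatives, with DESeq2, with a single fit of all 12 libraries and without WT IR replicate 1 (lowest adjusted p 0.000141). *Cish* and *Socs2*, the feedback genes of STAT5, had fold changes of 0.95 and 1.02 in WT (adjusted p = 0.127 and 0.160) and −0.32 and 0.75 in the libraries labelled Tet2-/- (0.232 and 0.179). For *Cish* the IR effects differed by −1.22 (edgeR adjusted p = 0.0697), called with DESeq2 and without WT baseline replicate 3 (lowest adjusted p 0.0157). *Socs2* was called in WT with the replicate block (1.01, adjusted p = 0.0468) and with DESeq2 (0.0421), and in the libraries labelled Tet2-/- without their baseline replicate 2 (1.36, adjusted p = 0.0152). *Bcl6*, a repressor that growth hormone turns down, fell in WT by −2.23 (adjusted p = 0.0152, lost in 4 of 15 alternatives, with p up to 0.261), from 18.0 to 25.5 FPKM at baseline to 3.60 to 7.37 FPKM after IR. It also fell in the libraries labelled Tet2-/-, by −1.13 (adjusted p = 0.00594), from 11.7, 9.01 and 5.92 FPKM to 4.86, 5.45 and 4.24 FPKM. Its baseline levels there lay below those of WT (−1.26, adjusted p = 0.206). *Jak2*, *Stat5a* and *Stat5b* had IR fold changes of 0.19, −0.45 and −0.31 in WT. In the libraries labelled Tet2-/- these were 0.23, −0.25 and −0.42, and the last passed the p threshold (adjusted p = 0.0222).

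Downstream of IGF1R, *Eif4ebp1*, a brake on translation that mTOR releases, rose in both genotypes. It had 10.5, 13.3 and 11.6 FPKM in WT baseline libraries and 21.9, 45.5 and 29.1 FPKM after IR, a fold change of 1.38 (edgeR adjusted p = 0.0432, lost in 6 of 15 alternatives, with p up to 0.361). In the libraries labelled Tet2-/- it went from 12.1, 9.59 and 14.8 FPKM to 75.3, 103 and 137 FPKM (2.86, adjusted p = 0.000379), and after IR it was higher there than in WT by 1.63 (adjusted p = 0.0288, lost in 5 of 14 alternatives). *Igf2bp2*, an RNA-binding protein of *Igf2* transcripts, rose by 2.57 in the libraries labelled Tet2-/- (adjusted p = 0.000257). It was higher than in WT after IR by 1.08 (adjusted p = 0.0498), a call lost in 10 of 14 alternatives, each single library left out among them (p up to 0.139). The insulin receptor substrate *Irs1* had −0.95 in the libraries labelled Tet2-/- (adjusted p = 0.0135, past the fold threshold in 2 of 14 alternatives) and −0.58 in WT (0.227), and *Irs2* had 0.19 and −0.16 (0.662 and 0.838).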

How the data were processed

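Kidney RNA-seq in 12 libraries was analysed in 4 groups of 3, grouped by the genotype and treatment in the labels. Alignment by the authors used STAR and mm9, and HOMER gave a count for each RefSeq transcript. The values they deposited are an estimated count per transcript without normalization, 38.7% of which are not whole and which rise in steps of 0.5, and were rounded here. The deposited FPKM values are those counts scaled by the authors to transcript length and library size, and served for levels. Of 34600 transcripts for 24421 symbols, the one with the highest total stood for a gene. The transcripts of a symbol share reads, with 20 transcripts for the 10 members.

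Each comparison was fitted on its own 6 libraries, and the interaction on all 12, in edgeR 4.0.16 (R 4.3.3) with TMM, the standard filter on low counts, its quasi-likelihood test, and p adjusted by Benjamini-Hochberg across every gene tested. Calls needed an adjusted p under 0.05 and, except for the interaction, an absolute log2 fold change over 1. limma 3.58.1 and DESeq2 1.42.0 gave alternatives, and each library was left out in turn. The fits were also run on simulated data, and the outcome of that is not given here. All members were named, with 16 further axis genes, at most 8 other called axis genes per comparison by size of change, and the 3 genes of lowest root mean square difference from *Ghr*, *Prlr*, *Igf1* and *Igfbp1* among genes with a mean of at least 1 FPKM. A result of the lists that the rule names is not reported here. Members and lists were chosen with earlier results of these data known. Same-numbered WT libraries deviated together from their group means between baseline and IR (r = 0.379, 0.339 and 0.364 over 16741 genes), so for WT the values with the replicate number as a block are given beside those of the fit without it wherever a call changed. The pairing comes from the data alone: the study's baseline and IR mice were different animals, and no source used here says that a number marks a shared litter or batch. In the libraries labelled Tet2-/- the same-numbered pairs were positive as well, though weak for replicate 1 (r = 0.088, 0.318 and 0.277). There the block was kept as an alternative fit, in which *Igfbp1* was called too (−1.59, edgeR adjusted p = 0.00976). Promoter motifs were chosen after the values had been seen.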

Additional observations from a re-analysis of the deposited data

Results flagged for a closer look

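A difference between the IR effects of the genotypes, by edgeR's interaction test over all 12 libraries, singled out these 8 genes of the axis. *Ghr* was at −1.96 on the log2 scale (IR effect in the libraries labelled Tet2-/- minus that in WT), *Igfals* at −1.78 and *Ghrhr* at −3.65. *Mmp7* was at 4.63, *Socs1* at 2.10, *Eif4ebp1* at 1.52, *Igf2bp2* at 1.5 and *Akt1* at 0.74. Of 20 alternatives, the call was lost in 13 for *Socs1* (adjusted p up to 0.291), 12 for *Akt1* (0.252), 11 for *Igf2bp2* (0.384) and 11 for *Eif4ebp1* (0.236). It was lost in 7 for *Mmp7* (0.0801), 4 for *Igfals* (0.0587), 3 for *Ghrhr* (0.182) and 1 for *Ghr*. For *Ghr* that was 0.0683 without WT baseline replicates 2 and 3, which leaves 1 library in that group.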

How the results depend on the processing

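The number of members called lower with IR in WT, 1, became 2 with DESeq2, with all 12 libraries in a single fit and with the replicate block, and 0 with library sizes alone, with limma on log2(FPKM + 1) and log2(FPKM + 0.1), with all transcripts of a symbol summed and without WT baseline replicates 2 and 3. It was 0 to 1 with each library left out, and the 1 without WT IR replicate 1 was *Igfbp5*. In the libraries labelled Tet2-/- the 6 became 3 with limma on log2(FPKM + 1) (*Ghr*, *Prlr* and *Igfbp5*), 7 with DESeq2 and with the replicate block (*Igfbp1* joined), and 4 without baseline replicate 3, with library sizes alone, with limma at the lower pseudocount and with a single fit (*Igfbp3* and *Igfbp4* dropped out). At baseline DESeq2 called 1 member. After IR the 1 became 3 with DESeq2 and 2 with a single fit and with the replicate block, and was 1 to 2 with each library left out (*Prlr* joined without WT IR replicate 2, *Igfbp3* without labelled Tet2-/- IR replicate 3). The interaction gave 2 with the replicate block and 0 without WT baseline replicates 2 and 3, which leaves 1 library there.

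Directions turned for values near 0. *Prlr* with IR in WT was 0.0068 with DESeq2, 0.077 with library sizes alone, 0.0009 and 0.0371 with limma at the higher and lower pseudocount, 0.34 with transcripts summed, and −1.86 to 1.55 with each library left out. *Igfbp1* with IR in WT was −0.71 to 0.24 with each library left out. *Igf1* between genotypes after IR was 0.0076 with library sizes alone, 0.0318 and 0.27 with limma, 0.28 with the replicate block, and −0.54 to 0.61 with each library left out. The cause was not tested. Of 1175 alternative values for 77 single-gene results, 989 kept their direction and their side of the threshold. Between genotypes, not every same-numbered pair of libraries deviated together (r = −0.145, −0.205 and 0.112 at baseline, 0.012, 0.217 and 0.375 after IR). The lowest count of a member in a library was 54, for *Igf1*.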
